A study of Mus musculus with 24 samples.

Results

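The let-7 family was represented by 9 mature probe sets, let-7a, let-7b, let-7c, let-7d, let-7e, let-7f, let-7g, let-7i and miR-98, of 1412 mouse miR probe sets on the array. They were chosen by name, as every mature let-7 or miR-98 probe set, with earlier results of these data known. No measured value was used as a filter. Another 8 probe sets detected star strands of the same hairpins (the opposite strand of the precursor), and 18 detected the hairpins themselves.

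let-7 miRs are among the oldest known animal miRs and are abundant in brain, where their levels rise as progenitors mature into neurons. All members share a seed, the stretch near the 5′ end that pairs with target mRNAs. Their precursors are blocked by LIN28A and LIN28B and are otherwise cut by DROSHA and DICER1 and loaded into Argonaute proteins. Known targets include Hmga2, Igf2bp1, Lin28 itself, RAS genes and Oprm1, which encodes the mu-opioid receptor that morphine binds.

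Hippocampi were taken on P9 from male C57BL/6 mice, and miRs were measured on 9 arrays, with 3 pups per group. Con pups were untreated, MS2 pups received 2 mg/kg morphine with stress, and MS5 pups received 5 mg/kg morphine with stress, starting on P5. Both treated groups were also isolated from the dam and made apneic with nitrogen, while Con pups had minimal handling, so morphine, isolation and apnea cannot be told apart in either comparison with Con. mRNA was measured on 15 further arrays, with 5 pups per group.

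The mature sequences below were read from RefSeq (GRCm38.p6) and are shown because the members differ only outside the seed, so that a probe for one lies within a few bases of the others. The plain array names were taken as the 5′ strand, and all 9 matched a RefSeq entry. Capitals mark the seed, bases 2 to 8.
let-7a: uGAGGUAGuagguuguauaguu
let-7b: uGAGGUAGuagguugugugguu
let-7c: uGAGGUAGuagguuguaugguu
let-7d: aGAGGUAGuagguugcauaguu
let-7e: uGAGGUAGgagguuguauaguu
let-7f: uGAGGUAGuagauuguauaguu
let-7g: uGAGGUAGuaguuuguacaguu
let-7i: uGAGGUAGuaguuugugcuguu
miR-98: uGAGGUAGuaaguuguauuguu

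The 9 sequences were 22 bases long with an identical seed, GAGGUAG, which 11 mature miRs of the RefSeq table carry. Positions were counted from 1 at the 5′ end, with the let-7a base first. let-7c (A19G), let-7e (U9G) and let-7f (G12A) differed from let-7a at a single base. let-7b (A17G, A19G), let-7d (U1A, U16C) and miR-98 (G11A, A19U) differed from it at 2 bases. let-7g (G12U, U18C) and let-7i (G12U, A17G, U18C, A19U) alone shared U at position 12 and C at position 18, and they differed from each other at 2 bases. Cross-hybridization between such close sequences was not tested, so the values are those of the named probe sets.

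The copies matched to the RefSeq sequence table lay on several chromosomes (GRCm38.p6). let-7i lay at chr10:122985698-122985719 on the minus strand, inside no other annotated gene and with no second hairpin within 10 kb. let-7g lay at chr9:106178846-106178867 within Wdr82, which encodes a subunit of a histone methyltransferase complex. let-7a, let-7f and let-7d had hairpins together on chromosome 13, let-7c and let-7b lay together on chromosome 15 within Lncppara, and let-7e lay beside miR-125a on chromosome 17 within Spaca6. A second copy of let-7c lay beside miR-99a on chromosome 16, and a second copy of let-7f lay beside miR-98 on chromosome X within Huwe1, a ubiquitin ligase gene. The array also had a hairpin probe set for let-7a-2, a copy of let-7a that was not among those matched.

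A few arrays stood apart from their group. On the miR arrays, MS2 replicate 4 correlated at 0.983 and 0.985 with the other MS2 arrays, which correlated at 0.996 with each other. Of the 2 neuronal marker miRs listed, miR-124 was between 14.17 and 14.38 on all 9 miR arrays, and miR-9 was at 6.71 on MS2 replicate 4 against 7.94 and 7.55 on the other MS2 arrays and 6.55 to 7.52 in Con and MS5. The mRNA array labelled MS2 replicate 4 had a mean level of 10.63 over 6 markers of hippocampal neurons, against at least 12.46 on the other 14 arrays. Neurod6 (10.02), Neurod2 (10.59), Zbtb20 (12.54) and Camk2a (9.07) were each lowest there by more than 1 log2 unit, Prox1 (9.43) was lowest by little, and Grin1 (12.15) lay within the range of the other MS2 arrays. MS2 replicate 5 was the dimmest mRNA array, with a median raw signal of 58.2 against 121 to 154 on the others and 67.1% of spots above background against 72.5% to 79.0%. In the MS5 group, the choroid plexus miRs miR-204 and miR-448 were at 5.23 and 4.81 on replicate 12 and at 5.37 and 4.71 on replicate 14, against 7.31 and 7.25 on replicate 9, while miR-211, the other listed one, was between 4.01 and 4.47 on all 9 arrays. The mean level of the 10 choroid plexus mRNAs was between 8.86 and 12.38 on the MS5 arrays and between 11.94 and 12.99 in Con, with replicates 9 and 14 the low ones. The mRNA array labelled MS5 replicate 9 also had Xist, an RNA of female cells, at 11.34, against at most 6.08 on the other 14 arrays, which goes against its label as male. Whether equal replicate numbers mark the same pup on both kinds of array is not given in the sources used here, so each number stands for its own array only. Values without some of these arrays are given beside some of the results. No listed mRNA passed the threshold against Con when MS2 replicate 4 or 5 or MS5 replicate 9 or 14 was left out.

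In MS2, let-7i rose, let-7g lay just under the threshold and no other member passed it. let-7i was the 1 member of 9 past the threshold used throughout, a change over 1.5-fold with an unadjusted p under 0.05 by limma. Of all 1412 probe sets, 2.97% passed that threshold. All members had a mean level of 5 or more, and of the 283 such mature probe sets 32 passed it. let-7i was also the single member with an adjusted p under 0.05 (Benjamini-Hochberg over all probe sets), as were 1.13% of all probe sets, and by its p it ranked 7 of 1412. An unadjusted p under 0.05 was found for 3 members and 13.2% of all probe sets. Of the 283 mature probe sets with a mean of 5 or more, 95 had an unadjusted and 13 an adjusted p under 0.05 by limma. All levels are log2 values, and levels of different probe sets are not comparable with each other.

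let-7i, which is a single-copy member, was at 10.51, 10.67 and 10.65 in Con, at 11.37, 11.05 and 11.21 in MS2 and at 10.90, 10.94 and 10.84 in MS5. Values are in the order of replicates 16, 17 and 18 for Con, 3, 4 and 6 for MS2 and 12, 14 and 9 for MS5, here and below. Every MS2 array was above every MS5 array, and every MS5 array was above every Con array, with the 2 mg/kg group the highest. The group means were 10.61 ± 0.089 in Con, 11.21 ± 0.16 in MS2 and 10.89 ± 0.046 in MS5 (SD, n = 3). let-7i was 1.52-fold higher in MS2 than in Con, a log2 difference of 0.60 with a 95% interval of 0.39 to 0.81 (limma, adjusted p = 0.0184). The exact permutation p was 0.1, the smallest that 3 against 3 arrays allow. Without any 1 of the 3 Con arrays or without MS2 replicate 6 the difference lay between 0.55 and 0.63. The adjusted p by limma then lay between 0.0565 and 0.108, no longer under 0.05, with 2 arrays left in 1 of the groups. In MS5 the difference from Con was 0.29 (interval 0.08 to 0.49, adjusted p = 0.443), and it lay between 0.23 and 0.31 without each Con or MS5 array in turn. MS5 was lower than MS2 by 0.32 (interval of MS5 minus MS2 -0.53 to -0.11, adjusted p = 0.542).

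let-7g was at 8.51, 8.77 and 8.78 in Con, at 9.37, 8.98 and 9.46 in MS2 and at 9.02, 8.93 and 8.55 in MS5. All 3 MS2 arrays lay above Con, and the MS5 arrays overlapped both other groups. let-7g was 1.49-fold higher in MS2, just under the threshold, with a log2 difference of 0.58 ± 0.16 (SE, adjusted p = 0.128). In MS5 the difference from Con was 0.15 (interval -0.21 to 0.50, adjusted p = 0.908). MS5 minus MS2 was -0.43 (adjusted p = 0.601). let-7g and let-7i were the only members whose MS2 and Con arrays did not overlap, 2 of 9. Among all probe sets 15.8% did not overlap between MS2 and Con, and among 283 mature probe sets with a mean level of 5 or more, as all members had, it was 29.7%.

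let-7a was at 11.90, 12.12 and 12.19 in Con, at 12.72, 12.03 and 12.58 in MS2 and at 12.36, 12.30 and 12.12 in MS5. MS2 replicates 3 and 6 lay above all Con arrays and replicate 4 lay among them. The MS2 difference was 0.38 (interval 0.00033 to 0.76, adjusted p = 0.378), and the MS5 difference was 0.19 (adjusted p = 0.888).

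let-7f, made from the same chromosome 13 cluster as let-7a, was at 8.32, 8.54 and 8.83 in Con, at 9.22, 8.14 and 9.05 in MS2 and at 8.68, 8.88 and 7.96 in MS5. It varied most within its groups, with an SD of 0.58 in MS2 and 0.49 in MS5. The MS2 difference was 0.24 (interval -0.46 to 0.94, adjusted p = 0.817), and MS5 differed from Con by -0.05, with an interval of -0.75 to 0.65.

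let-7b, let-7c and let-7d spanned narrow ranges outside MS2 replicate 4. let-7b was at 14.18, 14.17 and 14.27 in Con, at 14.25, 13.70 and 14.16 in MS2 and at 14.12, 14.12 and 14.24 in MS5. let-7c was at 14.09, 14.27 and 14.31 in Con, at 14.36, 13.98 and 14.33 in MS2 and at 14.36, 14.29 and 14.18 in MS5. let-7d was at 13.01, 12.98 and 13.07 in Con, at 13.10, 12.84 and 12.99 in MS2 and at 13.06, 12.99 and 13.02 in MS5. In all 3 the lowest of the 9 arrays was MS2 replicate 4, and the groups overlapped. Their MS2 differences were -0.17 for let-7b (interval -0.47 to 0.12), -0.00045 for let-7c (-0.26 to 0.26) and -0.04 for let-7d (-0.23 to 0.14). For each of the 3 the interval excluded a 1.5-fold change in either direction, also in MS5. The MS5 difference was 0.0050 for let-7d (-0.18 to 0.19). In MS5 let-7b differed from Con by -0.04 (-0.34 to 0.25) and let-7c by 0.05 (-0.21 to 0.31), with adjusted p of 0.977 and 0.975.

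let-7e, which differs from let-7a at a single base, was at 12.84, 12.77 and 12.86 in Con, at 12.76, 13.09 and 12.70 in MS2 and at 12.74, 12.84 and 12.87 in MS5. It was highest on MS2 replicate 4, where let-7b, let-7c, let-7d and miR-98 were lowest and let-7a and let-7f next to lowest. On MS2 replicates 3 and 6 let-7e lay just below all Con arrays. The MS2 difference was 0.02 (interval -0.21 to 0.26, adjusted p = 0.95) and the MS5 difference was -0.0049 (-0.24 to 0.23). Both intervals excluded a 1.5-fold change.

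miR-98, the dimmest member, was at 6.05, 5.88 and 5.89 in Con, at 5.95, 5.08 and 5.87 in MS2 and at 5.15, 5.81 and 5.85 in MS5. MS2 replicate 4 and MS5 replicate 12 were each lower than the remaining arrays. The difference from Con was -0.31 in MS2 (interval -0.86 to 0.25) and -0.34 in MS5 (-0.89 to 0.22), with adjusted p of 0.699 and 0.827. All 3 MS5 arrays lay below Con, by as little as 0.03 on 1 of them, and without MS5 replicate 12 the MS5 difference was -0.11.

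Without MS2 replicate 4, the array that stood apart, 3 members rose in MS2. let-7i was then higher than Con by 0.68 (interval 0.48 to 0.89, adjusted p = 0.0117), let-7g by 0.72 (0.40 to 1.05, adjusted p = 0.0226) and let-7a by 0.59 (0.33 to 0.84, adjusted p = 0.0213), and all 3 exceeded 1.5-fold. let-7f was higher by 0.58 with an adjusted p of 0.252. let-7b (-0.0027), let-7d (0.02) and miR-98 (-0.03) stayed close to 0, let-7c was at 0.12 and let-7e at -0.09. With 2 MS2 arrays against 3, the share of all probe sets past the 1.5-fold threshold was 6.44% and the share with an adjusted p under 0.05 was 6.73%, so more of the whole table was called as well.

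No member passed the 1.5-fold threshold in MS5 against Con, where 0.992% of all probe sets did. One member, let-7i, had an unadjusted p under 0.05, as did 8.50% of all probe sets. Of the 283 mature probe sets with a mean of 5 or more, 12 passed the threshold and 49 had an unadjusted p under 0.05. No member and 0% of all probe sets had an adjusted p under 0.05 by limma. let-7i lay above Con and miR-98 below it without overlap, 2 of 9 members, against 12.3% of all probe sets and 23.0% of the mature probe sets with a mean of 5 or more. Between MS5 and MS2, again no member passed the threshold against 0.425% of all probe sets, and none had an adjusted p under 0.05 against 0%. In that comparison 2 members, let-7g and let-7i, had an unadjusted p under 0.05, against 7.01% of all probe sets. Of the 283 brighter mature probe sets, 6 passed the threshold there and 47 had an unadjusted p under 0.05. let-7i was the 1 member without overlap, against 8.43% of all probe sets and 12.0% of the mature ones with a mean of 5 or more. Without MS2 replicate 4, let-7f passed the threshold in MS5 against MS2, lower by 0.63 on the log2 scale (MS5 minus MS2 -0.63, adjusted p = 0.283), against 3.05% of all probe sets, with 0% at an adjusted p under 0.05.

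A straight line over the doses of 0, 2 and 5 mg/kg gave no slope with an adjusted p under 0.05 in any member, and in 0% of all probe sets. No member had an unadjusted p under 0.05 by limma, against 84 of 1412 probe sets. The steepest positive slope was that of let-7i, 0.04 log2 per mg/kg (interval -0.04 to 0.13), and its highest level was at the middle dose. The median log2 difference over the 9 members was 0.02 in MS2, 0.0050 in MS5 and -0.03 for MS5 minus MS2. Over all probe sets these medians were -0.01, 0.0014 and 0.01.

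Across the 9 arrays, 24 of 36 pairs of members correlated above 0 and 12 below, with Pearson's r from -0.85 to 0.89. After each group's mean was taken away, all 28 pairs without let-7e correlated above 0, from 0.15 to 0.99, and the 8 pairs with let-7e below 0, from -0.87 to -0.50. let-7b and let-7i, for example, had r of -0.18 across the arrays, 0.01 across them without MS2 replicate 4, and 0.74 within groups. The within-group values include MS2 replicate 4 and were not computed without it. With that array, the MS2 SD was 0.30 for let-7b and 0.21 for let-7e, against 0.053 and 0.048 in Con. Across the arrays without it, 22 of 36 pairs correlated above 0. The r values are a description over at most 9 points that share arrays, groups and normalization. Across the arrays, r was 0.89 for let-7a and let-7g, 0.88 for let-7g and let-7i and 0.83 for let-7a and let-7i. let-7f had r of 0.83 with let-7a, 0.76 with let-7g and 0.51 with let-7i. let-7c had r of 0.76 with let-7a, 0.79 with let-7f, 0.49 with let-7g and 0.29 with let-7i. For let-7b and let-7d r was 0.89, but 0.56 without MS2 replicate 4. let-7e correlated below 0 with all 8 other members, from -0.85 to -0.15, and with 5 of 8 without MS2 replicate 4. By sequence, the median r across the arrays was 0.72 for the 4 pairs that differ at a single base, 0.39 for the 10 pairs at 2 bases, 0.28 for 11 at 3 bases and 0.29 for 9 at 4 bases, and the single pairs at 5 and 6 bases had -0.15 and 0.0074. The ranges were wide, from -0.62 (let-7a and let-7e) to 0.83 (let-7a and let-7f) at a single base and from -0.20 to 0.89 at 4 bases. Without MS2 replicate 4, r was 0.81 for let-7a and let-7c and 0.81 for let-7a and let-7f. It was then -0.11 for let-7b and let-7c, against 0.68 with that array, and -0.70 for let-7a and let-7e. These are the 4 pairs at a single base, and the medians were not computed without that array.

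Among 591 other mature probe sets, those most like the mean of the 9 members over the arrays were miR-218 (r = 0.94), miR-501-5p (0.94), miR-25 (0.90), miR-148a (0.87) and miR-26a (0.87). Each of the 5 was higher in MS2 than in Con, by 0.28 to 0.54 on the log2 scale, beside 45.7% of all probe sets. They were picked over the same arrays, group differences included, so this direction is not independent of the choice.

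Star strands and hairpins of the family showed little signal. The 8 star probe sets lay between 3.80 and 6.49 and the 18 hairpin probe sets between 3.74 and 4.67, where the median of all probe sets was 4.17 to 4.21 on each array. None of the 26 passed the 1.5-fold threshold in any comparison, and an unadjusted p under 0.05 was found for 1 star in MS2 against Con and 1 hairpin in MS5 against MS2, where 13.2% and 7.01% of all probe sets had one. That star was the star strand of let-7i, at 4.54, 4.42 and 4.55 in Con, at 4.78, 4.60 and 4.68 in MS2 and at 4.75, 4.58 and 4.60 in MS5. Its MS2 and MS5 arrays lay above Con, as those of let-7i itself did, by 0.19 in MS2 (adjusted p = 0.353), where 15.8% and 12.3% of all probe sets did not overlap with Con.

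Of 7 mature probe sets of miR-99, miR-100 and miR-125, which are known to lie in clusters with let-7 members, 1 passed the threshold. It did so in MS2 against Con, where 2.97% of all probe sets and 32 of the 283 mature ones with a mean of 5 or more passed. miR-125a-5p, encoded beside let-7e at chr17:17830817-17830840, is shown here because its seed is unlike that of let-7.
miR-125a-5p: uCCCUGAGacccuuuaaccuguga

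miR-125a-5p was at 11.50, 11.80 and 11.81 in Con, at 12.36, 12.35 and 12.19 in MS2 and at 12.13, 12.29 and 11.69 in MS5. All MS2 arrays, replicate 4 included, lay above Con, and the MS5 arrays overlapped Con. Between MS2 and Con, 15.8% of all probe sets and 29.7% of the mature ones with a mean of 5 or more did not overlap. It was 1.52-fold higher in MS2 (difference 0.60, interval 0.26 to 0.94, adjusted p = 0.101), and its MS5 difference was 0.33 (adjusted p = 0.615). The other probe sets of that cluster had MS2 differences of 0.02 for let-7e, -0.19 for miR-99b and -0.17 for miR-125a-3p, the opposite strand of the same hairpin. miR-125b-5p had a difference of 0.22 in MS2 (adjusted p = 0.302), miR-100 of 0.09 and miR-99a of 0.07.

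On the mRNA arrays, none of 55 genes of the let-7 pathway passed the 1.5-fold threshold in any comparison. The list held 6 genes of the LIN28 axis, 17 of miR processing, 30 known targets and 2 host genes, each by its brightest probeset, and 53 of the 55 were well above background on all 15 arrays. Of all 55681 probesets, 0.0233% passed the threshold in MS2 against Con, 0.228% in MS5 against Con and 0.129% in MS5 against MS2. No listed gene had an adjusted p under 0.05 by limma in any of the 3 comparisons, as was the case for 0% of all probesets, and 5, 4 and 3 listed genes had an unadjusted p under 0.05, beside 4.17%, 3.91% and 3.97% of all probesets. The groups did not overlap in 0, 1 and 0 listed genes, beside 0.699%, 0.832% and 0.625% of all probesets. The median log2 difference of the list was -0.0032 in MS2, -0.0027 in MS5 and 0.02 for MS5 minus MS2, beside -0.0017, 0.00033 and 0.0011 over all probesets.

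Among genes that act on let-7 itself, Lin28b, whose protein blocks let-7 precursors, varied most. Its level was 8.32 to 9.85 with a median of 8.59 in Con, 8.43 to 11.60 with a median of 8.85 in MS2 and 9.03 to 10.25 with a median of 9.66 in MS5. The highest value was that of MS2 replicate 4, and the groups overlapped. The difference from Con was 0.59 in MS2 (interval -0.49 to 1.67) and 0.79 in MS5 (-0.29 to 1.87, adjusted p = 1.0). Without MS2 replicate 4 the MS2 difference was 0.06, and the MS5 difference was 0.95 without MS5 replicate 9 and 0.65 without replicate 14. On the first slide alone the MS2 difference was 0.02, and on the second, which held MS2 replicate 4, it was 1.45. The MS5 differences on these slides were 1.07 and 0.43. A second, dimmer Lin28b probeset had differences of 0.34 in MS2 (interval -0.13 to 0.81) and 0.32 in MS5 (-0.15 to 0.79). Weighted by array quality, or fitted with Con and MS5 alone, Lin28b passed the 1.5-fold threshold in MS5, with adjusted p of 0.768 and 0.851. With the same weights, the MS2 difference of Lin28b was -0.0038. Lin28a (0.08 in MS2, 0.0040 without MS2 replicate 4, and 0.12 in MS5), its close relative, and Trim71 (-0.0011 and 0.10), a ubiquitin ligase gene that let-7 targets, overlapped between all groups. Zcchc11, which adds uridines to let-7 precursors, had a difference of 0.18 in MS2 (adjusted p = 0.97).

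None of the 17 processing genes passed the threshold in any comparison, and their differences from Con were at most 0.19 in size. Dicer1, which cuts the let-7 precursor, was at 11.68 ± 0.12 in Con, 11.78 ± 0.15 in MS2 and 11.75 ± 0.13 in MS5 (SD, n = 5). Ago2, which holds the mature miR, was at 12.23 ± 0.16, 12.33 ± 0.12 and 12.37 ± 0.15. The differences from Con were 0.10 and 0.07 for Dicer1 and 0.09 and 0.13 for Ago2, less than the SD of 1 or both groups, and their intervals excluded 1.5-fold. Without MS2 replicate 4 the MS2 difference of Dicer1 was 0.04, without MS5 replicate 9 its MS5 difference was 0.11, and without MS2 replicate 5 that of Ago2 was 0.14. The largest was that of Ago3, a relative of Ago2, at 0.19 in MS2 (adjusted p = 0.97).

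None of the 30 known targets passed the threshold in any comparison. In MS2, the mean of 12 targets was above Con and that of 18 below it, with differences from -0.34 to 0.23. The lowest was that of Ccnd2, the cyclin D2 gene, which was at 12.03 on MS2 replicate 4 and at 13.40 to 13.72 on the other MS2 arrays. Without that array its difference was -0.03, and the differences of the 30 targets lay between -0.19 and 0.21. Hmga2, a chromatin protein gene of growing cells, was at 7.60 ± 0.16 in Con, 7.67 ± 0.17 in MS2 and 7.76 ± 0.078 in MS5. Its MS2 difference of 0.06 was 0.02 without MS2 replicate 4 and 0.13 without replicate 5. Igf2bp1, an RNA-binding protein gene of early development, was at 6.34 ± 0.089, 6.29 ± 0.084 and 6.31 ± 0.055, and was above background on 14 of 15 arrays. Its MS2 difference of -0.05 was -0.02 without MS2 replicate 4. Oprm1 was at 16.05 ± 0.16 in Con, 16.22 ± 0.20 in MS2 and 16.20 ± 0.22 in MS5, with differences from Con of 0.17 (interval -0.08 to 0.42) and 0.15 (-0.10 to 0.40). Without MS2 replicate 5 the first was 0.25 (interval 0.0064 to 0.49, adjusted p = 0.753). A second Oprm1 probeset was at a mean level of 6.35 and was above background on 14 of 15 arrays, where the first, at 16.16, was brighter than all but 626 of 55681 probesets and saturated on 0 arrays. The second was higher in MS5 than in Con by 0.23 (interval 0.03 to 0.42, adjusted p = 1.0), and the probesets correlated at 0.40 over the 15 arrays. Which of them measures Oprm1 mRNA was not tested. By the brighter probeset, each of these 3 genes overlapped between all groups. In MS5, Edn1, the endothelin 1 gene, was higher than Con by 0.26 with no overlap (exact permutation p = 0.00794, the smallest that 5 against 5 arrays allow, limma adjusted p = 1.0), and Thbs1, the thrombospondin 1 gene, had a difference of -0.33 (adjusted p = 1.0). Without MS5 replicate 9 the differences were 0.28 for Edn1 and -0.38 for Thbs1, and without replicate 14 they were 0.29 and -0.25. Edn1 was the 1 gene of 55 without overlap and was named for it.

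Of the host genes, Wdr82 and Huwe1 were on the list, and neither passed the threshold in any comparison. Wdr82, which contains let-7g, was at 13.08 ± 0.092 in Con, 12.95 ± 0.076 in MS2 and 13.03 ± 0.11 in MS5. Its difference in MS2 was -0.14 (interval -0.26 to -0.01, adjusted p = 0.97), where that of let-7g was 0.58. On the first slide alone it was -0.11 and on the second -0.17. Huwe1, which contains miR-98 and a copy of let-7f, was at 13.98 ± 0.12, 13.86 ± 0.12 and 13.96 ± 0.11, with differences from Con of -0.12 and -0.02. Without MS2 replicate 5 the first was -0.07. In MS2 the differences of miR-98 and let-7f were -0.31 and 0.24. In these whole hippocampi, fewer cells of a type and less RNA per cell cannot be told apart for any miR or mRNA.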

How the data were processed

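The miR values were deposited by the authors on a log2 scale, after RMA processing (background correction, quantile normalization and median polish) of Affymetrix miRNA 2.0 arrays. The mRNA scanner files hold intensity per spot, deposited by the authors from Agilent Feature Extraction 10.7.1.1, and the mRNA series table holds log2 values that they adjusted with normexp and quantile normalized. These values were recomputed here from the intensity (normexp offset 50, quantile normalization, log2, control spots dropped, spots of a probe averaged, 55681 probesets), and each gene was taken by the probeset with the highest mean level.

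Groups were compared with limma 3.58.1 in R 4.3.3, with the 3 groups in 1 fit and Benjamini-Hochberg adjustment over all probe sets or probesets. Exact permutation tests were two-sided. The scripts were tested on simulated data. Members, gene lists and tests were chosen with earlier results of these data known. Every member was named, then star, hairpin and partner probe sets past the threshold, the 5 mature probe sets most like the member mean, and 10 pathway mRNAs fixed by name. Zcchc11, Ago3, Ccnd2, Edn1, Thbs1 and the star strand of let-7i were named after their values were seen. Per the labels each array is 1 animal, and the number of arrays limits the precision.

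Alternatives were other scalings, array weights, filters on low values, the slide as a block, 2-group fits and leaving out each array.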

Additional observations from a re-analysis of the deposited data

Results flagged for a closer look

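On the mRNA arrays, 30 sets of 5 values (10 pathway genes in 3 groups) were searched for a value far from the others, and 1 was found. Igf2bp1 was at 6.22 on the array of MS5 replicate 14, where the nearest of the other MS5 arrays was at 6.33. Chance gives about 1 such value in 20 sets, and the groups of 3 on the miR arrays were not searched.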

How the results depend on the processing

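No paired analysis was possible because the groups compared on 1 platform share no replicate numbers. The paper states that control pups were littermates of treated ones. The litter of each pup is not among the labels used here, so it could not be taken into account. The number of arrays limits every result. The 1 member past 1.5-fold in MS2 against Con became 2 with median centring, quantile normalization, array weights and centring on bright mature probe sets, the last chosen after seeing the data, and ranged from 0 to 3 when each array was left out. The 1 member with an adjusted p under 0.05 became 2 with array weights, 0 with only the 2 groups compared and 0 with centring on bright mature probe sets, and ranged from 0 to 3 when each array was left out. In MS5 against MS2 the count past 1.5-fold ranged from 0 to 1, and the median difference was -0.19 with array weights and from -0.31 to 0.0071 without each array in turn. The 1 partner miR past 1.5-fold became 0 with quantile normalization and ranged from 0 to 1 without each array in turn. The pathway mRNA count of 0 in MS5 against Con became 1, Lin28b, with array weights and with only the 2 groups compared, and in MS5 against MS2 it became 1 with array weights.

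Differences that passed no test changed sign under some settings. Most were near 0, but that of Lin28b was 0.59 in MS2 and 0.20 for MS5 minus MS2. Median centring gave, in MS2, 0.013 for let-7c. Quantile normalization gave, in MS2, 0.053 for let-7c, and, for MS5 minus MS2, -0.053 for let-7c and 0.039 for miR-98. Array weights gave, in MS2, 0.069 for let-7c, -0.044 for let-7e and -0.0038 for Lin28b, and, for MS5 minus MS2, -0.0060 for let-7c, 0.034 for let-7e and -0.0026 for Igf2bp1. Centring on bright probe sets gave, in MS2, 0.026 for let-7c, and, in MS5, -0.036 for let-7d, and, for MS5 minus MS2, -0.012 for let-7c and -0.017 for let-7d. Averaging the probesets of each gene gave, in MS2, 0.014 for Trim71, and, for MS5 minus MS2, -0.0050 for Hmga2 and 0.048 for Oprm1. Without each array in turn, the difference in MS2 ranged from -0.071 to 0.12 for let-7c, from -0.094 to 0.098 for let-7e, from -0.11 to 0.024 for let-7d and from -0.042 to 0.027 for Trim71. Without each array in turn, the difference in MS5 ranged from -0.013 to 0.10 for let-7c, from -0.032 to 0.032 for let-7e, from -0.016 to 0.031 for let-7d, from -0.24 to 0.22 for let-7f, from -0.065 to 0.020 for Huwe1 and from -0.047 to 0.0086 for Igf2bp1. Without each array in turn, the difference for MS5 minus MS2 ranged from -0.31 to 0.20 for miR-98, from -0.040 to 0.24 for let-7b, from -0.067 to 0.13 for let-7c, from -0.019 to 0.11 for let-7d, from -0.10 to 0.090 for let-7e, from -0.0080 to 0.12 for Lin28a, from -0.067 to 0.73 for Lin28b, from -0.098 to 0.041 for Oprm1, from -0.0071 to 0.047 for Igf2bp1, from -0.082 to 0.022 for Dicer1 and from -0.0095 to 0.095 for Ago2. The cause of these changes was not tested.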
